A study of Mus musculus with 6 samples.

Results

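The genes described here are 10 genes of the unfolded protein response of the endoplasmic reticulum (ER): Hspa5, Hsp90b1, Calr, Dnajb9, Dnajc3, Sdf2l1, Pdia4, Herpud1, Ern1 and Xbp1. They were taken by gene symbol from the 43346 genes of the deposited count table, each matched 1 row, and all 10 passed the filter on low counts that left 14000 genes for testing. Counts came from rRNA-depleted total RNA of primary mouse embryonic fibroblasts (MEFs, C57BL/6, passage 9) sequenced on an Ion Proton instrument. In 3 libraries the cells had received 3 µM erastin for 24 h, and in the 3 control libraries they had received the solvent DMSO. Erastin blocks the cystine/glutamate antiporter and is used to induce ferroptosis, an iron-dependent form of cell death. The culture medium of both groups held serum and 2-mercaptoethanol, which is itself a reducing agent. The experiment was done in triplicate, but the labels do not say whether the 3 libraries of a group came from separate embryos or cultures, so the p-values measure the spread between these libraries.

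The ER folds secreted and membrane proteins, and its stress response is started by the membrane sensors IRE1 (gene Ern1), ATF6 and PERK (gene Eif2ak3). IRE1 splices Xbp1 mRNA so that it codes for an active transcription factor, and ATF6 is cut loose from its membrane anchor in the Golgi; both factors raise ER chaperones, folding enzymes and the machinery that sends misfolded proteins to the proteasome. PERK phosphorylates the translation factor eIF2alpha, which lowers general translation and raises ATF4, but kinases outside the ER that respond to amino acid shortage, heme shortage or viral RNA act on the same factor. ATF4 targets can therefore rise with or without the IRE1 and ATF6 targets. Fibroblasts secrete much collagen and carry a high level of ER chaperones for it.

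Total counts were 13333911 to 18505571 with DMSO and 16800789 to 20509970 with erastin. Levels are given as CPM, counts scaled to a common library size by the TMM method (trimmed means of M-values), and 3 counts, taken as the smallest detectable level, were worth 0.14 to 0.234 CPM; this covers counting error only. Of the 10 genes, Sdf2l1 had the fewest reads, 147 to 309 per library, and no other gene was under 288. Fibroblast identity was checked with 10 markers. All 10 were detected, and the collagen gene Col1a1 averaged 10976 CPM with DMSO and 6607 CPM with erastin. The epithelial, endothelial and leukocyte marker lists summed to at most 17.9 CPM in any library, and Epcam and Pecam1 averaged at most 0.409 CPM in either group. The endothelial list summed to 2.72 to 4.84 CPM with DMSO and 8.14 to 10.8 CPM with erastin, most of it from Kdr (means of 3.20 and 8.25 CPM). The muscle list summed to 35.5 to 45.6 and 65.2 to 69.1 CPM, nearly all of it from Des (means of 40.6 and 66.7 CPM). Myod1, Myog, Pax7 and Myf5 averaged at most 0.351 CPM, and Myog had 0 reads with erastin. Kdr and Des rose by 1.38 and 0.72 in log2 units (adjusted p = 0.00172 and 5.37e-05 by edgeR). The neural list summed to 136 to 175 CPM with DMSO and 135 to 158 CPM with erastin; in it Tubb3 fell by 0.74 and Nes rose by 0.46 in log2 units, Map2 did not pass, and Sox2 and Sox10 averaged at most 0.365 CPM. The part of these genes in the results was not tested.

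Several of the 10 genes share a promoter sequence, which is shown first because the genes that carry it did not move together. The ER stress response element (ERSE) is bound by NF-Y at its CCAAT end and by ATF6 or XBP1 at its CCACG end. CCAAT and CCACG separated by 9 bases of any kind were searched on both strands of RefSeq promoter windows (GRCm38.p6), from 250 bases before to 50 after each annotated start. They occurred in 39 of 32851 windows (0.119%), among them those of 4 of the 10 genes. Below, each match is read 5′ to 3′ along the strand on which it lies, with 5 bases on either side and the fixed letters in capitals.
Hspa5, chr2:34772020-34772048, plus strand: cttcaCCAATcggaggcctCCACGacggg
Hsp90b1, far copy, chr10:86705633-86705661, minus strand: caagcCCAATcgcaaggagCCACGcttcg
Hsp90b1, near copy, chr10:86705528-86705556, plus strand: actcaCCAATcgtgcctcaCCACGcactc
Calr, chr8:84847070-84847098, plus strand: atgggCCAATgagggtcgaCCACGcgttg
Dnajc3, chr14:118937822-118937850, plus strand: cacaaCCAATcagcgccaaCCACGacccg

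Hsp90b1 holds 2 copies in opposite orientations, and the copy in Calr runs against the direction of the gene. The far end of the match lies 65 bases before the RefSeq start of Hspa5, 105 before that of Dnajc3, 162 before that of Calr, and 107 and 212 before that of Hsp90b1. GENCODE places the start of Hspa5 further upstream, so that the match falls inside its annotated gene there. A related element, ERSE-II, searched as ATTGG and CCACG separated by 1 base of any kind, was present in 12 windows (0.0365%), among them that of Herpud1. The Herpud1 window also holds the only match among the 10 genes to TGATGNAA, a core of the element bound by ATF4 with C/EBP proteins (CARE), which was found in 3.97% of windows and in 7 of the 22 genes of the ATF4 arm that have a window. No match to these letters was found in the windows of Dnajb9, Ern1, Xbp1, Sdf2l1 and Pdia4. These are matches of letters, and binding to them was not analysed here. Calr is the gene of the 10 that fell most, and Herpud1 the one with letter matches for both arms. The 240 bases that begin 250 bases before the starts of these 2 genes are given along the gene's strand. The fixed letters of each match are in capitals.
Calr, chr8:84846942-84847181, minus strand: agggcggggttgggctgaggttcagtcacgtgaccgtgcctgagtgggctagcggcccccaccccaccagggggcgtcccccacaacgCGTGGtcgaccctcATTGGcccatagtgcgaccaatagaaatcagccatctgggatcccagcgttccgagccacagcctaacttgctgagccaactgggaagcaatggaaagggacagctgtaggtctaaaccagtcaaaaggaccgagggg
Herpud1, chr8:94386179-94386418, plus strand: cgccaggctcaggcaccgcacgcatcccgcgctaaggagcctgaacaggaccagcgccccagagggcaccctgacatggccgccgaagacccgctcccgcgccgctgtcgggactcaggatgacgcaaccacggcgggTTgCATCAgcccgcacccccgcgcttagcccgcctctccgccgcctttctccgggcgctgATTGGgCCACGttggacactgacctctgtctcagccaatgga

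**Figure D1:**
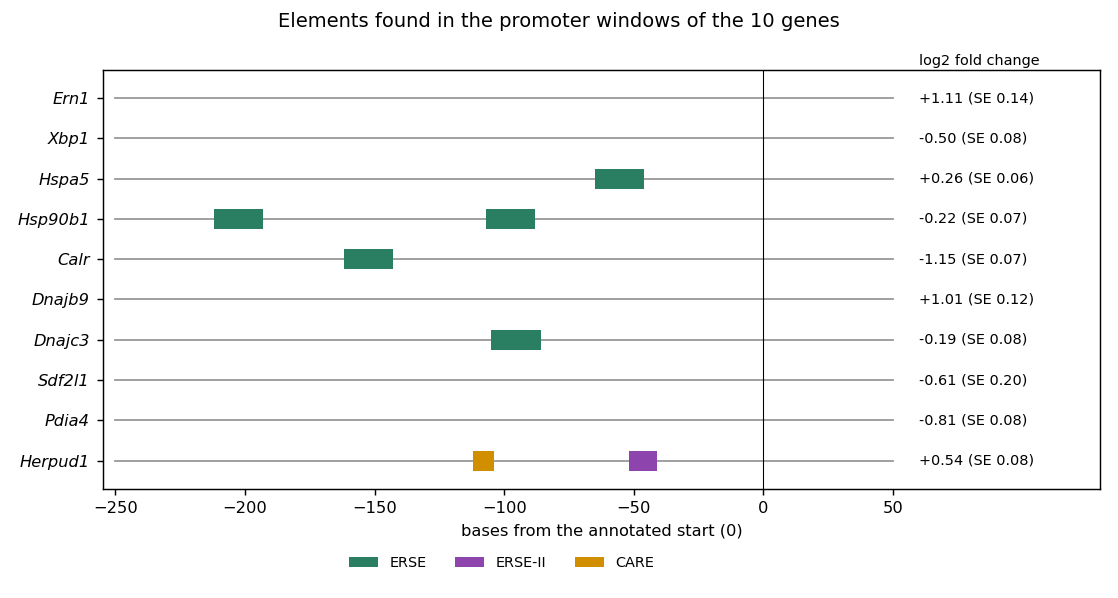
Position of the promoter elements of the 10 genes in bases from the RefSeq start (x axis, 0 is the start), with the fitted log2 fold change of each gene and its standard error at the right. ERSE-II is purple and CARE orange, and the 4 genes with an ERSE (green) run from +0.26 for Hspa5 to -1.15 for Calr.

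Of the 10 genes, 4 rose and 5 fell with erastin, and Dnajc3 did not pass the test. Ern1, Dnajb9, Herpud1 and Hspa5 rose, and Calr, Pdia4, Sdf2l1, Xbp1 and Hsp90b1 fell, at an adjusted p-value under 0.05 in edgeR's quasi-likelihood test. Over all 14000 genes tested, 21.6% rose and 21.5% fell, 43.1% in all. Without DMSO replicate 2 only 3 fell, as Hsp90b1 and Sdf2l1 no longer passed. The median log2 fold change of the 10 genes was -0.20, against -0.0014 over all genes. The groups did not overlap in any of the 10 genes; 4 were higher and 6 lower with erastin, where 26.7% and 25.9% of all genes tested (52.5% in all) were separated in this way. A log2 fold change of at least 1 together with an adjusted p under 0.05 was reached by Ern1 and Dnajb9 upwards (4.99% of all genes). Calr reached it downwards (7.16%). Ern1 came to 0.99 without DMSO replicate 2, and Dnajb9 was under 1 in 5 of 18 alternatives, at 0.81 to 0.99. In bulk RNA, fewer cells of a type and less RNA per cell cannot be told apart.

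The sensor gene Ern1 and its substrate Xbp1 moved in opposite directions. Ern1 (ENSMUSG00000020715.5, chr11:106394650-106487852), which encodes the kinase and endonuclease IRE1, stood at 21.8, 18.1 and 24.9 CPM in DMSO and at 49.6, 50.3 and 38.8 CPM in erastin libraries. Every erastin library was above every DMSO library, and erastin replicate 3 was the lowest of its group. The log2 fold change of Ern1 was 1.11 (SE 0.14, adjusted p = 1.78e-05 by edgeR), a 2.15-fold rise. Xbp1 (ENSMUSG00000020484.14, chr11:5520659-5525893) stood at 104, 102 and 106 CPM in DMSO and at 78.4, 72.4 and 70.2 CPM in erastin libraries. The DMSO libraries lay close together, and all 3 erastin libraries were below them. The log2 fold change of Xbp1 was -0.50 (SE 0.08, adjusted p = 0.000174 by edgeR). Counts per gene do not separate spliced from unspliced Xbp1 mRNA, so the splicing itself was not analysed here.

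Among the major ER chaperones, Hspa5 rose a little while Hsp90b1 and Calr fell. Hspa5 (ENSMUSG00000026864.9, chr2:34771970-34777547) encodes BiP, the ER chaperone of the HSP70 family that also holds the sensors inactive. Its level was 771, 799 and 771 CPM in DMSO and 956, 936 and 903 CPM in erastin libraries. The groups stood apart, by more than the spread within either, and the rise was 1.19-fold (log2 fold change 0.26, SE 0.06, adjusted p = 0.00441 by edgeR). After an offset that removed trends with GC content and transcript length it was 0.15 and did not pass (adjusted p = 0.0593 by edgeR; over the alternatives, 3.36e-05 to 0.0692).

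Hsp90b1 (ENSMUSG00000020048.9, chr10:86690209-86705509) encodes GRP94, the ER member of the HSP90 family. It stood at 703, 708 and 711 CPM in DMSO and at 613, 563 and 650.2 CPM in erastin libraries. The DMSO values were nearly equal and all 3 erastin values lay under them (log2 fold change -0.22, SE 0.07, adjusted p = 0.0208 by edgeR). The call was lost with scaling by total count only (-0.15, adjusted p = 0.129 by edgeR; over the alternatives, 0.000107 to 0.129) and without DMSO replicate 2, erastin replicate 1 or erastin replicate 2 (adjusted p = 0.0667, 0.0599 and 0.103 by edgeR). Of its exon bases, 5.38% are shared with other annotated genes on the same strand and 10.3% with genes on the other, and the strand setting of the counting is not given in the sources used here.

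Calr (ENSMUSG00000003814.8, chr8:84841850-84846934) encodes calreticulin, a lectin chaperone of glycoproteins that also stores ER calcium. It fell further than the other 9 genes, from 1109, 962 and 1009 CPM in DMSO to 459, 455 and 470.05 CPM in erastin libraries. Every erastin library was far below every DMSO library, and the erastin libraries were closely spaced. The log2 fold change was -1.15 (SE 0.07, adjusted p = 1.39e-08 by edgeR).

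Of the J-domain cochaperones, which drive the ATPase of BiP, Dnajb9 rose and Dnajc3 did not pass. Dnajb9 (ENSMUSG00000014905.3, chr12:44205559-44210326) encodes ERdj4, which recruits BiP to IRE1. It stood at 22.4, 18.6 and 23.3 CPM in DMSO and at 44.6, 41.5 and 43.3 CPM in erastin libraries. Its 3 erastin libraries were close together and well above the DMSO libraries (log2 fold change 1.01, SE 0.12, adjusted p = 7.97e-06 by edgeR). Dnajc3 (ENSMUSG00000022136.7, chr14:118937976-118981697) encodes p58IPK, which assists BiP in the ER lumen. It was at 153, 145 and 146 CPM in DMSO and at 125, 125 and 139.8 CPM in erastin libraries. The groups did not overlap, with erastin replicate 3 nearest to DMSO, and the difference did not pass (log2 fold change -0.19, 95% interval -0.40 to 0.03, adjusted p = 0.0704 by edgeR). It passed with upper-quartile factors, after the GC and length offset and without erastin replicate 3 (log2 fold change -0.24, -0.36 and -0.24, adjusted p = 0.0235, 0.000898 and 0.032 by edgeR; over the alternatives, 0.000898 to 0.274).

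Sdf2l1 and Pdia4, which act with BiP in a chaperone complex of the ER lumen, both fell. Sdf2l1 (ENSMUSG00000022769.7, chr16:17130138-17132383) stood at 13.6, 17.1 and 14.2 CPM in DMSO and at 11.8, 9.94 and 7.62 CPM in erastin libraries. The gap between the groups was smaller than the spread within each (log2 fold change -0.61, SE 0.20, adjusted p = 0.0213 by edgeR). The call for Sdf2l1 was lost after the GC and length offset (-0.42, adjusted p = 0.103 by edgeR; over the alternatives, 0.0133 to 0.103) and without DMSO replicate 2 or erastin replicate 3 (adjusted p = 0.101 and 0.0809 by edgeR). Pdia4 (ENSMUSG00000025823.8, chr6:47796141-47813430) encodes ERp72, a protein disulfide isomerase, one of the enzymes that form and reshuffle disulfide bonds. It went from 268, 281 and 279 CPM in DMSO to 152, 148 and 172 CPM in erastin libraries. The groups were far apart relative to their spread (log2 fold change -0.81, SE 0.08, adjusted p = 9.94e-07 by edgeR).

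Herpud1 (ENSMUSG00000031770.11, chr8:94386438-94395377) encodes a membrane protein of ER-associated degradation, the route that returns misfolded proteins to the cytosol for the proteasome. It stood at 77.1, 84.6 and 86.8 CPM in DMSO and at 121, 121 and 118 CPM in erastin libraries. The erastin libraries were nearly equal and all above DMSO (log2 fold change 0.54, SE 0.08, adjusted p = 8.47e-05 by edgeR).

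**Figure D2:**
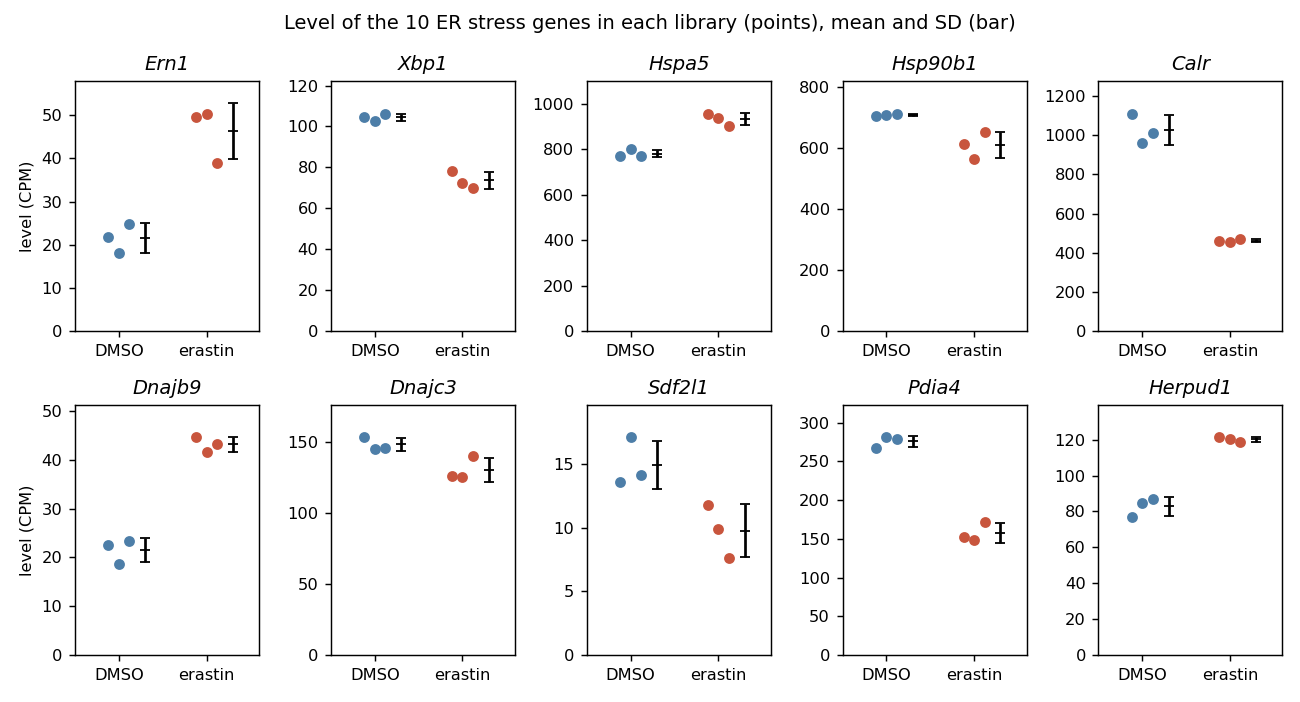
Level in CPM (y axis, from 0, own scale per gene) of each of the 10 genes in the 3 DMSO libraries (blue) and the 3 erastin libraries (red), with the mean and SD at the right of each group. Ern1, Dnajb9, Herpud1 and Hspa5 are higher with erastin in all 3 libraries, and the groups do not overlap in any of the 10 panels.

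The changes altered the order of the genes by level per length, taken as CPM per kilobase of annotated exon. In DMSO, Calr was the most abundant at 334 to 385 CPM per kb, followed by Hspa5 (182 to 189), Hsp90b1 (174 to 176) and Pdia4 (112 to 117). Then came Herpud1, Xbp1 and Dnajc3 with means of 35.5, 32.1 and 28.8 CPM per kb, and below them Sdf2l1, Dnajb9 and Ern1 with means of 13.5, 8.41 and 2.64 CPM per kb. No neighbours in this order overlapped in their 3 DMSO libraries. With erastin Hspa5 led at 213 to 226 CPM per kb. Calr followed at 158 to 163 and Hsp90b1 at 139.6 to 161, and these 2 overlapped. Dnajb9 (16.3 to 17.5 CPM per kb) stood above Sdf2l1 (6.88 to 10.7), the reverse of their order in DMSO, and Dnajc3 (24.3 to 27.2) above Xbp1 (21.6 to 24.1). Within each library, the level per length of Hspa5 was 0.473 to 0.566 times that of Calr in DMSO and 1.31 to 1.42 times in erastin libraries. Against Hsp90b1 the same ratio was 1.03 to 1.08 with DMSO and 1.32 to 1.59 with erastin. These ratios do not depend on how libraries are scaled against each other. Together the 10 genes took 0.305% to 0.322% of all counts in DMSO and 0.251% to 0.274% in erastin libraries.

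**Figure D3:**
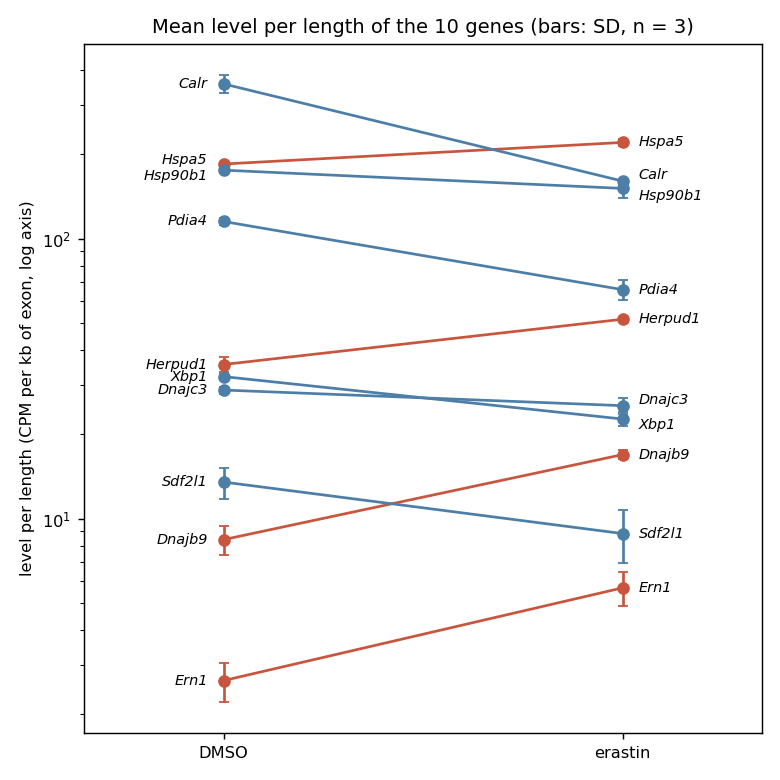
Mean level per length of the 10 genes in DMSO and erastin libraries (y axis, CPM per kb of exon, log scale; bars, SD, n = 3), with genes whose mean was higher with erastin in red and lower in blue. Hspa5 and Calr exchange places at the top, as do Dnajb9 and Sdf2l1 near the bottom.

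The sensors of the other arms were listed with the factors that process or relay them. Of 14 sensors and transducers outside the 10 genes, 4 rose, 3 fell and 7 did not pass, against 21.6% and 21.5% of all genes, with a median log2 fold change of -0.068. Atf6, the sensor and transcription factor of the ATF6 arm, rose from 96.7 ± 2.97 to 227 ± 6.17 CPM (± SD over n = 3 libraries; log2 fold change 1.23, SE 0.07, adjusted p = 1.14e-08 by edgeR). Eif2ak3, which encodes PERK, stood at 46 ± 6.93 CPM with DMSO and at 39.6 ± 5.39 CPM with erastin (SD, n = 3) and did not pass (log2 fold change -0.21, 95% interval -0.57 to 0.14, adjusted p = 0.198 by edgeR). Creb3l1, a membrane-bound relative of ATF6 that acts on collagen genes, and Tmbim6, an ER membrane protein that restrains IRE1, fell by 0.50 and 0.29 in log2 units (adjusted p = 0.0021 and 0.00394 by edgeR). Bax, which encodes a pore-forming BCL2 family protein, had the largest p-value of the list, at a log2 fold change of 0.05 (adjusted p = 0.654 by edgeR); after the GC and length offset it was 0.45 and passed (adjusted p = 0.000182 by edgeR; over the alternatives, 0.000115 to 0.966).

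All 25 genes listed for the ATF4 arm rose, against 21.6% of all genes tested. Their log2 fold changes were 0.32 to 4.59, with a median of 0.93. The list was drawn up with an earlier result on these data known, so its direction is no independent evidence. Atf4 itself rose from 217 ± 17 to 414 ± 9.52 CPM (± SD over n = 3 libraries; log2 change 0.93, adjusted p = 1.66e-07 by edgeR). Ppp1r15a, the phosphatase subunit that reverses eIF2alpha phosphorylation, rose by 2.96, the cystathionine gamma-lyase gene Cth by 3.09 and the secreted stress factor gene Gdf15 by 4.35 in log2 units, with adjusted p-values (edgeR) of at most 2.19e-10. Chac1, which encodes a glutathione-degrading enzyme, rose by 2.22, and the asparagine synthetase gene Asns by 0.84 (adjusted p = 1.36e-09 and 6.97e-07 by edgeR).

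Trib3 and Ddit3, often used as markers of ER stress, also rose. Trib3, a pseudokinase gene that CHOP and ATF4 activate, went from 99.5 ± 3.25 to 146 ± 5.36 CPM (± SD over n = 3 libraries; log2 fold change 0.56, adjusted p = 3.68e-05 by edgeR). Ddit3, which encodes CHOP, a factor tied to death under ER stress, went from 73.1 ± 10.5 to 95.4 ± 15.4 CPM (± SD over n = 3 libraries; log2 fold change 0.38, adjusted p = 0.0199 by edgeR). Without DMSO replicate 1 or erastin replicate 3 the change of Ddit3 was 0.28 and 0.25 and did not pass (adjusted p = 0.0987 and 0.102 by edgeR; over the alternatives, 0.000375 to 0.102). Per length, Hspa5 mRNA was 1.82 to 2.12 times as abundant as Atf4 mRNA in DMSO libraries and 1.23 to 1.28 times in erastin libraries. The difference between the 2 arms was not tested as such, since the lists were chosen with results known; their medians of -0.20 for the 10 genes and 0.93 for the ATF4 arm are descriptions.

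**Figure D4:**
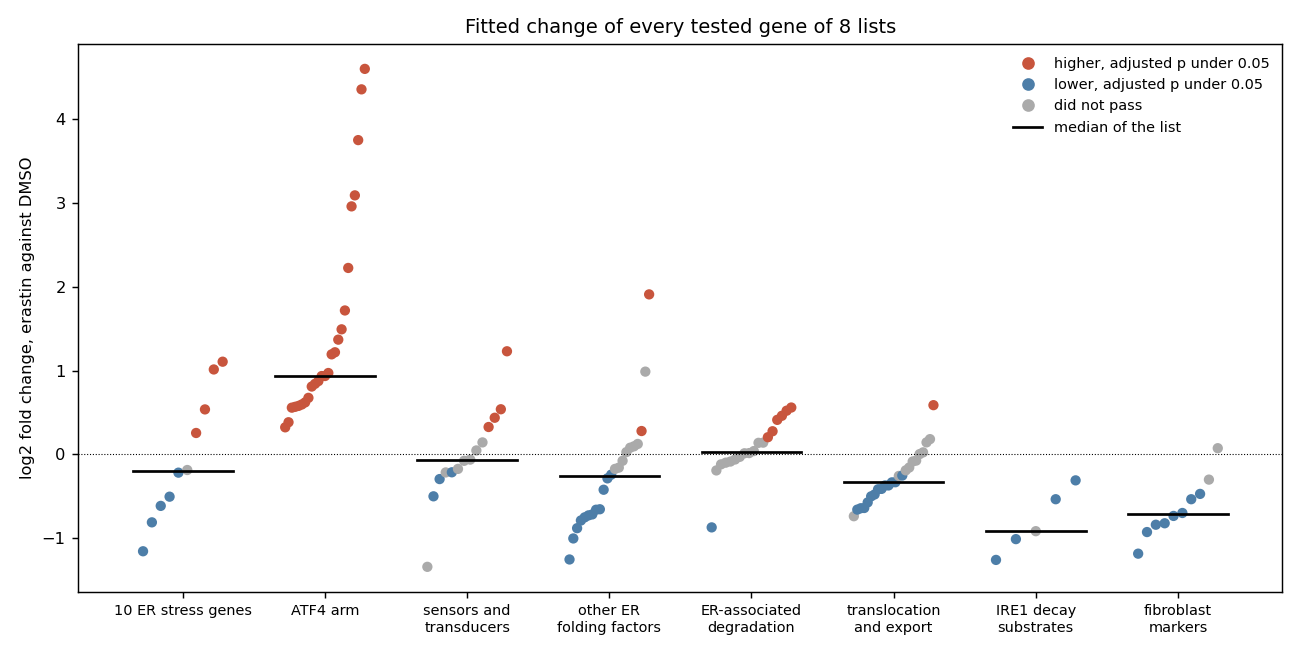
Fitted log2 fold change (y axis, erastin against DMSO) of every tested gene in 8 lists, coloured by the edgeR call (red higher, blue lower, grey did not pass), with the list's median as a black line. All 25 ATF4 arm points are red, the 10 ER stress genes hold 4 red and 5 blue points, and the IRE1 decay substrates and fibroblast markers hold no red ones.

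Folding factors of the ER outside the 10 genes included more genes that fell than rose. Of 22 such genes, 12 fell, 2 rose and 8 did not pass, against 21.5% of all genes that fell and 21.6% that rose. The median log2 fold change of the 22 genes was -0.26. With 1 library left out 10 to 11 fell, and without DMSO replicate 3 or erastin replicate 2, 1 rose. The protein disulfide isomerase genes Pdia6 and P4hb, the latter also a subunit of the collagen prolyl hydroxylase, fell from 346 ± 18 to 145 ± 11.4 CPM and from 1304 ± 36.3 to 652 ± 17 CPM (± SD over n = 3 libraries; log2 fold change -1.25 and -1.001, adjusted p = 1.92e-08 and 2.04e-08 by edgeR). Manf, which encodes a secreted ER stress factor, fell by 0.65 in log2 units (adjusted p = 1.41e-05 by edgeR). Dnajb11, an ERdj3 gene with an ERSE-II, fell by 0.28 (adjusted p = 0.0221 by edgeR) and lost its call in 5 of 18 alternatives (adjusted p of 0.00819 to 0.0787 over the alternatives, by edgeR or DESeq2).

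In the other direction, Ero1l, the oxidase that hands disulfide bonds to the isomerases, rose from 85.1 ± 8.01 to 319 ± 23.1 CPM (± SD over n = 3 libraries; log2 fold change 1.91, SE 0.09, adjusted p = 1.11e-09 by edgeR). Hyou1, an HSP110-type partner of BiP, and Creld2, a disulfide isomerase-like factor, are targets of ATF6 and XBP1 that did not pass. Their log2 fold changes were 0.03 (95% interval -0.17 to 0.23) and 0.08 (95% interval -0.31 to 0.47), with adjusted p-values (edgeR) of 0.785 and 0.675. Calr's partners in the glycoprotein folding cycle, chosen after their values were seen, differed. Canx, the membrane-bound lectin related to calreticulin, stood at 767 ± 34.6 CPM with DMSO and at 688 ± 21.5 CPM with erastin (± SD over n = 3 libraries; adjusted p = 0.07 by edgeR) and did not pass, while Pdia3, the isomerase that both lectins recruit, fell by 0.88 in log2 units (adjusted p = 1.77e-07 by edgeR). Per length, Calr mRNA was 2.04 to 2.26 times as abundant as Canx mRNA in DMSO libraries and 1.08 to 1.11 times in erastin libraries.

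Over all genes with an ERSE in a promoter window, 30 matched the table and 16 were tested. Of these, 2 rose, 5 fell and 9 did not pass, where 21.6% of all genes rose and 21.5% fell. Hspa5 and Hnrnpa3 were the 2 that rose. The 5 that fell were Hsp90b1, Calr, Pdia6, Adcy3 and Spats2l. Because 4 of the 10 genes are in this set, its counts are no separate evidence on them. Hnrnpa3, Adcy3 and Spats2l are in none of the other lists. The median log2 fold change of the 16 genes was -0.19. The set was defined by sequence with the changes of the 10 genes known. After the GC and length offset 0 rose and 6 fell. With 1 library left out 1 to 2 rose and 2 to 5 fell: 3 fell without DMSO replicate 1, DMSO replicate 2 or erastin replicate 2 and 2 without erastin replicate 1, and 1 rose without DMSO replicate 2, DMSO replicate 3, erastin replicate 1 or erastin replicate 2. Besides Hspa5, Hsp90b1, Calr and Dnajc3, the set includes Pdia6, Canx and Creld2, whose values are given above. The element was found in genes that rose, fell and did not pass.

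Of 18 genes of ER-associated degradation tested besides Herpud1, 6 rose, 1 fell and 11 did not pass. Among all genes tested, 21.6% rose and 21.5% fell. The median log2 fold change of the 18 genes was 0.03. The ubiquitin-conjugating enzyme gene Ube2g2 and Ufd1, a cofactor of the VCP extraction ATPase, rose by 0.56 and 0.52 in log2 units (adjusted p = 0.000266 and 0.000344 by edgeR). Edem1, an XBP1 target whose product marks misfolded glycoproteins for disposal, was the gene that fell, from 140.1 ± 10.6 to 76.7 ± 4.52 CPM (± SD over n = 3 libraries; log2 fold change -0.87, adjusted p = 1.51e-06 by edgeR). Its relative Edem2 had the largest p-value, at 20 ± 3.48 CPM with DMSO and at 19.6 ± 2.68 CPM with erastin (± SD over n = 3 libraries; adjusted p = 0.907 by edgeR). Without erastin replicate 1, only 3 genes of this list rose.

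Genes for entry into and exit from the ER included more that fell than rose. Of 24 translocon, signal peptidase, oligosaccharyltransferase and COPII coat genes, 13 fell, 1 rose and 10 did not pass. The shares over all genes were 21.5% that fell and 21.6% that rose. The median log2 fold change of the 24 genes was -0.33, and without DMSO replicate 3, 2 rose. Sec24d and Sar1a, which build COPII vesicles, and Ssr4, a subunit of the translocon-associated complex, fell by 0.57, 0.50 and 0.64 in log2 units (adjusted p = 1.67e-05, 8.61e-05 and 6e-05 by edgeR). Sec11c, a signal peptidase subunit gene, had the largest p-value, at 13.1 ± 3.06 CPM with DMSO and at 13.2 ± 0.496 CPM with erastin (± SD over n = 3 libraries; adjusted p = 0.988 by edgeR).

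Most fibroblast markers, among them secreted collagens, were lower in the same libraries. Of the 10 fibroblast markers, 8 fell and 2 did not pass, against 21.5% of all genes that fell. Fn1 did not pass, at means of 8083 CPM with DMSO and 8512 CPM with erastin (adjusted p = 0.495 by edgeR). Dcn did not pass either, at 171 and 139 CPM (adjusted p = 0.053 by edgeR). The median log2 fold change of the 10 markers was -0.71. The list summed to 35433 to 38496 CPM with DMSO and 25455 to 26901 CPM with erastin. Its part in the lower level of Calr, Pdia4 and the other folding genes was not tested.

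Some mRNAs are known to be cut by IRE1 itself when it is active, and 5 of them were looked up. Of these, 4 fell, 0 rose (0 at an unadjusted p under 0.05) and 1 did not pass. With 1 library left out 3 to 4 fell. Of all genes tested, 21.5% fell and 21.6% rose. The median of the 5 was -0.91, which is the value of Bloc1s1, the gene that did not pass. Without DMSO replicate 3 the median was -0.50. Scara3, a scavenger receptor gene, fell from 43.9 ± 6.77 to 18.4 ± 1.3 CPM, and the collagen gene Col6a1 from 667 ± 75.4 to 332 ± 17.8 CPM (± SD over n = 3 libraries; adjusted p = 2.43e-06 and 2.65e-07 by edgeR). Pdgfrb, the receptor gene that is also among the fibroblast markers, fell by 0.53 in log2 units (adjusted p = 3.29e-05 by edgeR). Bloc1s1, the substrate most used as a readout of this cleavage, had 9 to 42 reads per library and stood at 1.8 ± 1.33 CPM with DMSO and at 0.953 ± 0.378 CPM with erastin (± SD over n = 3 libraries; adjusted p = 0.258 by edgeR). Its log2 fold change ran from -1.30 to -0.19 with 1 library left out, and 55.9% of its exon bases are shared with Rdh5 on the same strand, so its counts are uncertain. DESeq2 called 4 of these 5 genes lower and 0 higher.

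All 10 genes kept the sign of their log2 fold change under the 18 alternatives run. Ern1, Dnajb9, Herpud1, Xbp1, Pdia4 and Calr also passed in all 18, with edgeR or DESeq2 adjusted p-values of at most 0.00139. Hspa5 passed in 16, Hsp90b1 and Sdf2l1 in 14 each, and Dnajc3 in 4.

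**Figure D5:**
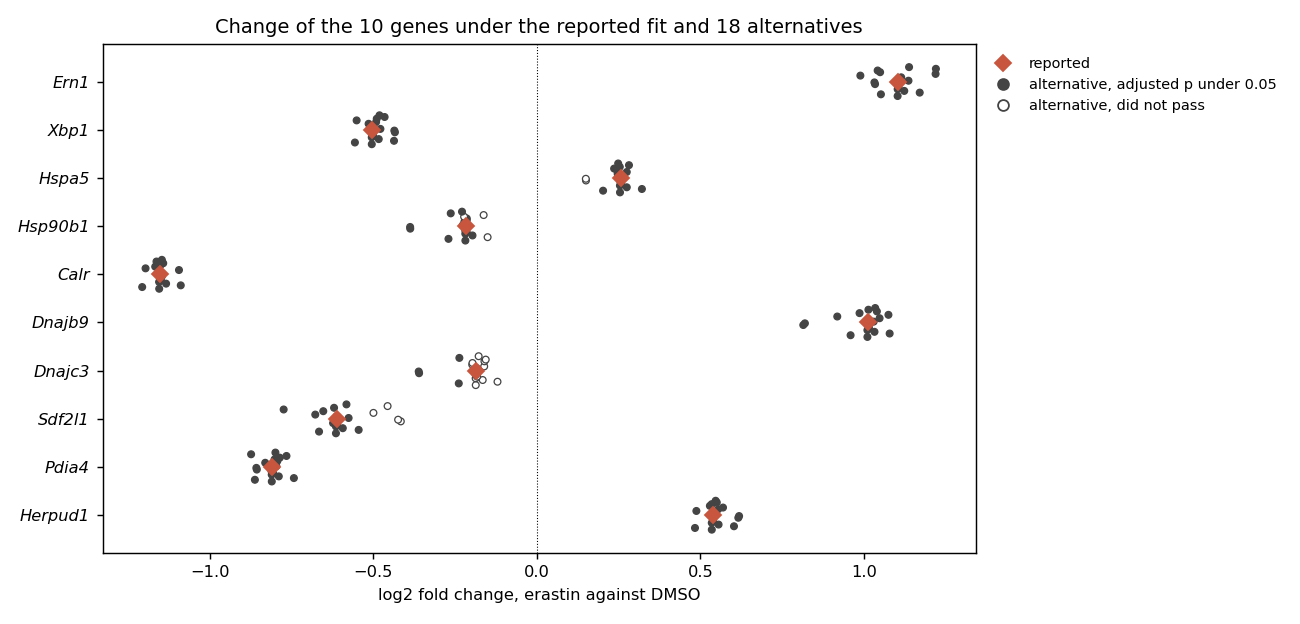
Log2 fold change (x axis, erastin against DMSO) of the 10 genes as reported (red diamonds) and under 18 alternative settings (circles, filled where the adjusted p was under 0.05). No circle lies on the other side of 0 from its diamond, and the open circles belong to Hspa5, Hsp90b1, Dnajc3 and Sdf2l1.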

How the data were processed

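The deposited values are whole-number read counts per gene for the 6 libraries; the submitters' processing notes name HTSeq 0.9.1, SAMtools and the build mm10 without giving their roles, and the aligner, annotation and strand setting are not given in the sources used here. The counts were tested with edgeR 4.0.16 in R 4.3.3 (quasi-likelihood test, TMM factors, filterByExpr at its defaults, Benjamini-Hochberg adjustment over the 14000 genes kept, called at an adjusted p under 0.05). Symbols, positions and exon lengths came from GENCODE M21 (42462 of 43346 genes had a symbol), promoter sequences from RefSeq GRCm38.p6. The 95% intervals were computed from the standard errors with the 4 residual degrees of freedom of the 6 libraries. They are wider than the edgeR test would give, so an interval can include 0 at an unadjusted p under 0.05. Alternatives used DESeq2 1.42.0, other scaling factors and filters, thinning, a GC and length offset, a replicate block and leaving out each library.

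The 10 genes and all lists were chosen with earlier results of these data known. Named were the 10 genes, the 3 genes of smallest p and the largest p among those that did not pass in each other list, and 13 fixed genes: Atf4, Ddit3, Trib3, Chac1, Ppp1r15a, Asns, Atf6, Eif2ak3, Hyou1, Creld2, Manf, Pdia6 and Dnajb11. Canx, Pdia3, Fn1, Dcn, Hgsnat, Hnrnpa3, Adcy3, Spats2l and the marker genes of other cell types were named after their values were seen. Lists are described by counts and medians only. On simulated counts (13836 genes), the test recovered 87.6% of changes of 1 and 16.5% of changes of 0.5 on the log2 scale. Only 97 genes were changed at each size there, with the same dispersion for every gene. In the data 43.1% of genes were called, so these shares do not give the rate of misses in this comparison. That rate was not measured. A planned list of proteins with an ER retrieval sequence was not analysed here.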

Additional observations from a re-analysis of the deposited data

How the results depend on the processing

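Counts and medians of the lists kept their direction except where given here. Of the values recomputed under an alternative, 1104 were rated the same, 60 moved, 22 reversed in sign, 17 lost a call and 6 gained one. A gene was rated the same if its sign and call were kept, and a median if it stayed within the spread between libraries. Counts were rated the same within a fixed ratio of the reported count, so they could still differ. The number of genes called was 4802 to 5809 with 1 library left out. With upper-quartile factors the median log2 fold changes were -0.25 (10 ER stress genes), -0.12 (sensors), -0.32 (other folding factors) and -0.0253 (ER-associated degradation, reversed in sign), and with total count only they were -0.14, -0.00223, -0.20 and 0.0936, with 1.001 for the ATF4 arm and 2 translocation and export genes higher. These scalings moved the share of called genes that were higher from 50.2% to 44.0% and 57.1%. With no filter the medians were -0.18 for the 10 genes and -0.24 for other folding factors. With the GC and length offset, 1 other folding factor rose, 2 degradation genes fell, and the medians were -0.37 for the 10 genes, 0.998 for the ATF4 arm, -0.34 for other folding factors and -0.60 for IRE1 decay substrates. At an adjusted p under 0.01, 3 of the 10 genes fell. The cause of these shifts was not tested.

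Leaving out 1 library at a time gave 3 to 5 of the 10 genes lower with medians of -0.25 to -0.16, and medians of -0.113 to -0.0281 for sensors, -0.29 to -0.24 for other folding factors (1 to 2 higher), 0.0298 to 0.0775 for degradation genes (3 to 6 higher) and -1.09 to -0.50 for IRE1 decay substrates, with 1 to 2 translocation and export genes higher. Genes with log2 fold changes near 0 changed sign: Bax (-0.00569) and Hyou1 (-0.0257) with upper-quartile factors, Hyou1 (-0.0218 to 0.0628) when 1 library was left out, Creld2 (-0.00701 to 0.18) likewise, Sec11c (-0.0494 with upper-quartile factors, -0.0941 with the GC offset, -0.151 to 0.194 with 1 library left out) and Edem2 (0.0323 with total count only, 0.0399 with the GC offset, -0.148 to 0.105 with 1 library left out). The median of all genes was 0.0646 with total count only, 0.0171 with no filter, and -0.0137 to 0.000233 with 1 library left out.

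Libraries with the same replicate number showed no large shared deviation (mean correlation 0.01 for the same number, -0.0063 for others). The same-number correlations ran from -0.0055 to 0.0401. Such values cannot exclude a smaller shared effect, and the labels do not say whether equal numbers mark a shared batch. With a replicate block 5882 genes were called against 6028, 4 and 5 of the 10 genes still rose and fell, the IRE1 decay substrates had a median of -0.73 and all genes 0.00171. With the block and thinning these medians were -0.74 and 0.000528. With the block and the GC offset 1 other folding factor rose, 2 degradation genes fell, and the medians were -0.37 for the 10 genes, 1.001 for the ATF4 arm, -0.34 for other folding factors and -0.50 for IRE1 decay substrates, with Edem2 at 0.043 and Sec11c at -0.0681. Depth limits genes with few reads, such as Bloc1s1 with 9 to 42 per library. The planned list of proteins with an ER retrieval sequence was not run.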
